A study of Mus musculus with 6 samples.

Results

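The genes described here write or erase methylation of H3K27 or belong to the KMT2C/D branch with which the UTX family works, and they were chosen by name as the rows of the deposited table for Uty, Kdm6a, Kdm6b, Ezh1, Ezh2, Eed, Suz12, Jarid2, Kmt2c and Kmt2d. All 10 were found, once each, among the 54232 genes of the table, and all 10 passed the filter on low values. RNA was sequenced from cardiomyocytes of adult male mice, isolated by collagenase perfusion and kept for 4 h on laminin. The gene-trap group (UtyGT) carried the allele UtyGt(XS0378)Wtsi, a splice-acceptor trap with a stop codon in intron 4 of Uty, and the wild-type group (WT) was the isogenic strain C57BL/6.Y<129P2>. Both groups thus had a Y chromosome of 129P2 origin on a C57BL/6J background, the trap came from 1 embryonic stem cell clone and was not limited to cardiomyocytes, and there were 3 libraries per strain, named by the letters of their labels as WT-e, WT-f and WT-g for wild type and GT-d, GT-e and GT-f for the trap. The labels name ventricular cardiomyocytes and the methods the whole heart, and the labels call the material total RNA in one field and cytoplasmic RNA in another.

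Trimethylation of H3K27 marks silenced developmental genes. It is written by Polycomb repressive complex PRC2, in which EZH1 or EZH2 carries the methyltransferase activity, EED and SUZ12 form the core, and JARID2 is an accessory subunit that helps the complex bind chromatin. It is erased by KDM6A (UTX) and KDM6B (JMJD3). UTY, the Y-linked homolog of UTX, has little demethylase activity and shares with UTX functions that do not need it. UTX is a subunit of the KMT2C and KMT2D complexes, which methylate H3K4 at enhancers. Adult cardiomyocytes have left the cell cycle, and EZH2 is known chiefly from dividing cells. The comparison asked whether the RNAs of the other writers and erasers shift when that of Uty is lost.

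Libraries held between 28283654 and 48377453 reads assigned to genes, and genes of the mitochondrial genome took from 46.9% to 54.7% of them in wild type and from 39.8% to 44.8% with the trap. Values are normalized counts, reads divided by a size factor of the library. Defining cardiomyocyte genes were abundant, with sums over 10 markers from 1896467 to 1945087 normalized counts in wild type and from 1977249 to 2029964 with the trap, and 1 of them rose. Markers of other cells were present as well, and none of those listed was at 0 in all libraries. Fibroblast markers summed to between 3488 and 5161 in wild type and between 4277 and 5965 with the trap (3 of 10 rose), endothelial markers to between 15228 and 17360 and between 13667 and 22361 (3 of 10 rose), smooth muscle and pericyte markers to between 7638 and 8184 and between 6666 and 10316 (4 of 8 rose), and macrophage and lymphocyte markers to between 285 and 453 and between 411 and 507 (2 of 8 measured rose). Atrial markers summed to between 914 and 1118 in wild type but to 1148, 10039 and 6201 in GT-d, GT-e and GT-f (4 of 6 rose and 1 fell), and erythrocyte markers to between 65.0 and 94.8 and between 60.9 and 88.4 (0 of 2 measured passed). Marker by marker, 10 of 10 fibroblast, 9 of 10 endothelial and 7 of 8 smooth muscle and pericyte genes were higher with the trap. Of the macrophage and lymphocyte genes, 5 of 8 measured were higher. Median log2 fold changes of these lists were 0.37, 0.48, 0.64 and 0.61, against 0.05 for cardiomyocyte markers. Over all tested genes the median was 0.00, and 4.55% rose. The part of these differences in the results below was not tested. In such bulk RNA, fewer cells of a type and less RNA per cell cannot be told apart. A read was seen in 28619 genes of GT-f and in 21615 to 22917 genes of each other library. The libraries came from separate isolations, but the sources used here do not say whether each was from 1 animal.

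Parts of Uty are shown because its values rest on them. The trap sits between exons 4 and 5 of the principal Uty transcript (27 exons, chromosome Y, minus strand, GRCm38 as for all coordinates here), in an intron of 24983 bases at 1199514 to 1224496. The first sequence is the coding junction that normal splicing makes across it, with the last 30 bases of exon 4 in lower case and the first 30 of exon 5 in capitals. Exons 1 to 4 hold 535 of the 5208 bases of this transcript (10.3%), so any reads from that end are still counted for Uty.
Uty exon 4 to exon 5: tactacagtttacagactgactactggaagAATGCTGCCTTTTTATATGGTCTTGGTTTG

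The second pair shows how far reads of 50 bases can tell Uty from Kdm6a. Only 12 windows of 50 bases were shared by the annotated transcripts of both genes, of 10325 in Uty and 8565 in Kdm6a, and all lie in a single coding run of 61 identical bases in exon 13 of each gene, at 1169172 to 1169232 of chromosome Y and at 18247000 to 18247060 of chromosome X. The capitals mark the identical run, and the lower-case letters are the 20 transcript bases on each side.
Uty exon 13: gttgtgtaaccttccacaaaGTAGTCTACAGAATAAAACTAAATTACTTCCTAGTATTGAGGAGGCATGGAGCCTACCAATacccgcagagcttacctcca
Kdm6a exon 13: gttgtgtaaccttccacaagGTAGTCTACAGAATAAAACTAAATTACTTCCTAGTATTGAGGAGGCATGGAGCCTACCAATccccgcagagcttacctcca

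Among the other members, the share of 50-base windows found in transcripts of any other gene was at most 5.82% (Eed), and no pair of members other than Uty and Kdm6a shared a window. Annotated exons of 5 members (Kdm6b, Ezh2, Eed, Suz12 and Kmt2c) overlap a gene on the opposite strand, and these partners held 3 to 47 reads over the 6 libraries.

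Among the H3K27 demethylase genes, the loss of Uty was not accompanied by a rise of either relative. Uty (ENSMUSG00000068457, chromosome Y, 1096861 to 1245759) had 1093, 1017 and 877 normalized counts in WT-e, WT-f and WT-g and 13.9, 10.5 and 8.03 in GT-d, GT-e and GT-f, from 21, 9 and 7 reads. The trap libraries thus held 1.09% of the wild-type mean (log2 fold change -6.42 ± 0.19 SE, n = 3 per group, limma adjusted p = 3.05e-09, rank 1 of 13875 genes tested). How the trap lowered this RNA was not tested. Whether the remaining reads come from exons before or after the trap cannot be told from counts per gene.

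Kdm6a (ENSMUSG00000037369, chromosome X, 18162575 to 18279936), which encodes the demethylase UTX and is present in 1 copy in males, had 850, 836 and 812 normalized counts in WT-e, WT-f and WT-g and 747, 721 and 750 in GT-d, GT-e and GT-f. The groups did not overlap and each varied little (832.6 ± 19.4 and 739.8 ± 16.0, SD, n = 3), but the difference did not pass over all genes (log2 fold change -0.17 ± 0.07 SE, 95% interval -0.33 to -0.01, limma adjusted p = 0.142). The interval is not adjusted over genes, and the unadjusted p was 0.0342 with limma and 0.0765 with DESeq2.

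Kdm6b (ENSMUSG00000018476, chromosome 11, 69398508 to 69413675), which encodes the stress- and signal-induced demethylase JMJD3, had 5167, 6108 and 5716 normalized counts in the WT libraries and 6030, 5216 and 6442 in the GT libraries. Its groups overlapped, with WT-e and GT-e the lowest of their groups (log2 fold change 0.06 ± 0.09 SE, 95% interval -0.13 to 0.24, limma adjusted p = 0.719).

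By annotated exon length, Uty and Kdm6a had similar levels in wild type. By the longest transcript, Uty was higher (191.2 against 140.3 normalized counts per kb). With the trap, nearly all of their summed RNA was Kdm6a. Per kb of annotated exon, Uty was 101.7 ± 11.2 and Kdm6a 99.3 ± 2.32 normalized counts in wild type, and Uty made up 52.4%, 51.0% and 48.1% of their sum in WT-e, WT-f and WT-g. With the trap it made up 1.57%, 1.24% and 0.908% in GT-d, GT-e and GT-f. Their sum was 213, 204 and 186 normalized counts per kb in WT-e, WT-f and WT-g. It was 90.6, 87.1 and 90.3 in GT-d, GT-e and GT-f, below every wild-type library and at 44.5% of the wild-type mean (two-sided exact permutation p = 0.1, the smallest that 3 against 3 libraries can give). Because Uty is part of this sum, its loss alone separates the groups, and the p adds nothing to the fall of Uty. The sum over Uty, Kdm6a and Kdm6b, most of it Kdm6b, overlapped between the groups, with 1015 ± 63.2 normalized counts per kb for WT and 937 ± 91.5 for GT (SD, n = 3, two-sided exact permutation p = 0.5).

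**Figure D1:**
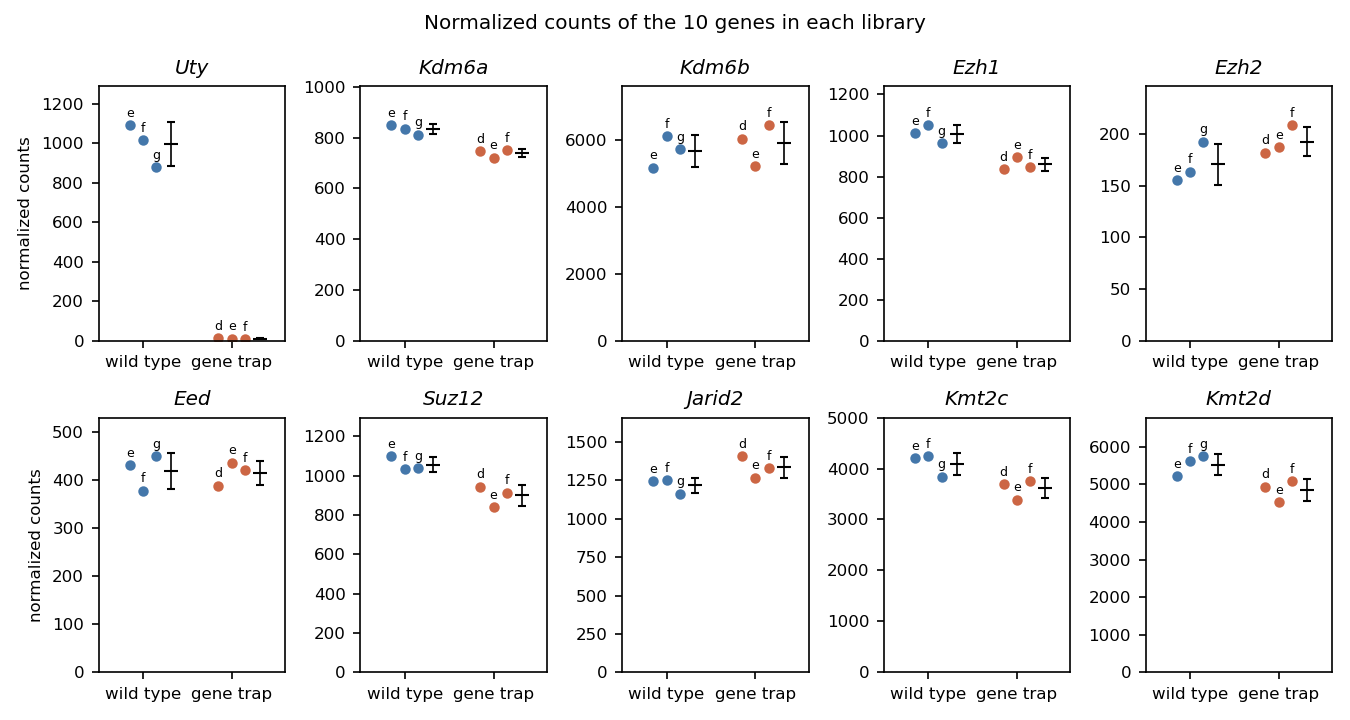
Normalized counts of the 10 genes in each library (points, with the letter of the library; blue, wild type; orange, gene trap), with mean ± SD (n = 3) at the side and every vertical axis starting at 0. Uty falls from between 877 and 1093 to between 8.03 and 13.9, while the trap means of the other 9 genes are between 85.1% and 113.0% of wild type.

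The catalytic subunits of PRC2 had opposite signs, and neither passed. Ezh1 (ENSMUSG00000006920, chromosome 11, 101191115 to 101226463), the catalytic subunit typical of non-dividing cells, had 1011, 1052 and 961 normalized counts in WT-e, WT-f and WT-g and 837, 896 and 847 in GT-d, GT-e and GT-f. Every gene-trap library was below every wild-type library, at 85.3% of the wild-type mean (log2 fold change -0.23 ± 0.07 SE, 95% interval -0.39 to -0.07, limma adjusted p = 0.0636). Without GT-e the difference passed (log2 fold change -0.26, limma adjusted p = 0.0348), and over all libraries left out in turn the limma adjusted p ranged up to 0.232.

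Ezh2 (ENSMUSG00000029687, chromosome 6, 47530139 to 47595341), the catalytic subunit of dividing cells, had the lowest level per kb of the 10 in wild type. It had 155, 164 and 193 normalized counts in the WT libraries and 182, 187 and 209 in the GT libraries. WT-g lay among the gene-trap libraries, and the highest value was that of GT-f (log2 fold change 0.18 ± 0.13 SE, 95% interval -0.10 to 0.45, limma adjusted p = 0.386). Without WT-e the log2 fold change was 0.11 and without WT-g 0.27, and with a block for the letters it was 0.31; it did not pass in any of these fits. GT-f had the largest and GT-e the smallest sums of endothelial and smooth muscle markers. The smallest sums of fibroblast markers (3488) and of macrophage and lymphocyte markers (285) were those of WT-e. Other sums went the other way. The largest of these sums (5965 and 507) were those of GT-d, whose Ezh2 value was the lowest of the trap libraries. Among wild-type libraries, WT-f had the largest sums of all these markers, while Ezh2 was highest in WT-g. The part of other cells in the Ezh2 values was not tested.

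As Ezh1 was lower and Ezh2 higher with the trap, their ratio had to be further from its wild-type value than either level. The ratio of Ezh1 to Ezh2 per kb was 5.84, 5.77 and 4.48 in WT-e, WT-f and WT-g and 4.13, 4.29 and 3.64 in GT-d, GT-e and GT-f. The groups did not overlap, WT-g being the nearest, and the mean ratio with the trap was 75.0% of that in wild type (5.36 ± 0.767 against 4.02 ± 0.339, SD, n = 3, two-sided exact permutation p = 0.1, the smallest possible). Summed per kb, Ezh1 and Ezh2 reached 161.1 ± 4.20 normalized counts for WT and 144.4 ± 4.42 for GT (two-sided exact permutation p = 0.1), and Ezh1 made up most of that sum in every library.

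**Figure D2:**
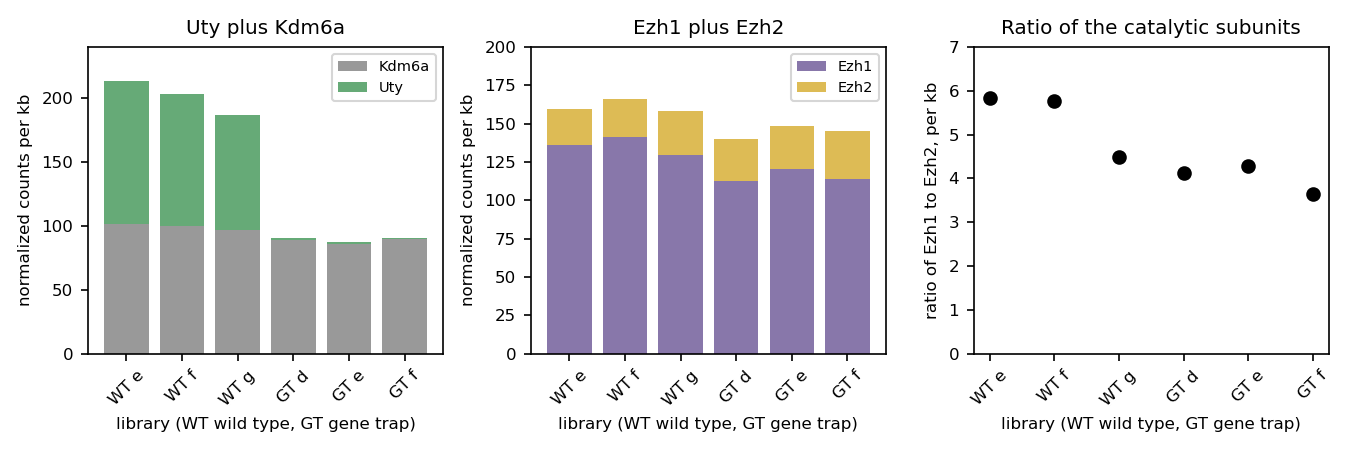
Levels of the paralogs in each library, in normalized counts per kb of annotated exon, as stacked bars for Uty on Kdm6a (left) and Ezh2 on Ezh1 (middle), and the ratio of Ezh1 to Ezh2 (right); WT is wild type and GT gene trap. The Uty part of the bar, 48.1% to 52.4% in wild type, is at most 1.57% with the trap, and the ratio is 4.48 or more in wild type and 4.29 or less with the trap.

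Of the core subunits, Eed (ENSMUSG00000030619, chromosome 7, 89954654 to 89980983), the subunit that binds methylated H3K27, was close to equal. It had 432, 378 and 450 normalized counts in the WT libraries and 389, 437 and 421 in the GT libraries (log2 fold change -0.01 ± 0.10 SE, 95% interval -0.23 to 0.20, limma adjusted p = 0.946).

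Suz12 (ENSMUSG00000017548, chromosome 11, 79993106 to 80034123), the scaffold of the core, had 1097, 1032 and 1038 normalized counts in WT-e, WT-f and WT-g and 944, 840 and 912 in GT-d, GT-e and GT-f. The groups did not overlap, GT-e being the lowest, and the trap libraries held 85.1% of the wild-type mean (log2 fold change -0.23 ± 0.07 SE, 95% interval -0.40 to -0.07, limma adjusted p = 0.0648). It passed under upper-quartile scaling (limma adjusted p = 0.0493).

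Jarid2 (ENSMUSG00000038518, chromosome 13, 44729474 to 44921643), the accessory subunit, was the 1 member whose trap libraries all lay above wild type, though narrowly. It had 1245, 1249 and 1162 normalized counts in the WT libraries and 1405, 1267 and 1326 in the GT libraries (log2 fold change 0.13 ± 0.07 SE, 95% interval -0.03 to 0.28, limma adjusted p = 0.259).

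The partner methyltransferases of UTX were both lower in every gene-trap library, and neither passed. Kmt2c (ENSMUSG00000038056, chromosome 5, 25271798 to 25498783) had 4197, 4238 and 3841 normalized counts in WT-e, WT-f and WT-g and 3693, 3388 and 3757 in GT-d, GT-e and GT-f (log2 fold change -0.18 ± 0.07 SE, 95% interval -0.33 to -0.03, limma adjusted p = 0.109). Kmt2d (ENSMUSG00000048154, chromosome 15, 98831669 to 98871204) had 5212, 5613 and 5745 in wild type and 4943, 4534 and 5094 with the trap (log2 fold change -0.19 ± 0.07 SE, 95% interval -0.33 to -0.04, limma adjusted p = 0.0980). In both genes the lowest library was GT-e and the highest trap library GT-f, and the gap between the groups was small beside the range within them. The sums of atrial markers were 10039 in GT-e, 6201 in GT-f and 1148 in GT-d. The part of atrial cells in the values of Kmt2c and Kmt2d was not tested.

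Counted together, Uty, the trapped gene, fell, and of the 9 other members 0 fell and 0 rose by limma. Of all tested genes, 10.7% were called in either direction, 6.12% fell and 4.55% rose. Of the 9 others, 5 had an unadjusted p under 0.05 with limma, all of them lower with the trap (Kdm6a, Ezh1, Suz12, Kmt2c and Kmt2d), where 28.2% of all tested genes did so in either direction, and 15.0% did so and were lower. With edgeR 0 of the 9 passed and 5 had an unadjusted p under 0.05, and with DESeq2 0 passed and 4 did. Scaled by reads outside the mitochondrial genome, the unadjusted limma p was 0.0603 for Kdm6a and 0.0559 for Kmt2c. After quantile normalization it was 0.0571 for Kdm6a, 0.156 for Kmt2c and 0.113 for Kmt2d, and 0.0365 for Jarid2, which was higher. Ezh1 and Suz12 stayed under 0.05 in both. Leaving out Uty, the groups did not overlap in 6 of the 9 members, 5 of them lower with the trap. Of all tested genes, 31.9% had no overlap, 17.7% lower and 14.2% higher. The median log2 fold change was -0.17 over the 9 members other than Uty and 0.00 over all tested genes. Among the 7586 tested genes with a mean within the range of the members, it was -0.02, 14.1% were called and 36.8% did not overlap. Among the 4983 also within the members' range of exon length, the median was -0.03, 8.99% fell and 4.11% rose. The 95% intervals of the 9 others lie between 76.0% and 136.9% of wild type, so that a change of the size seen in Uty is outside all of them. With any 1 library left out, Kdm6a, Suz12, Kmt2c and Kmt2d did not pass, and Kdm6b, Ezh2, Eed and Jarid2 did not pass either.

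**Figure D3:**
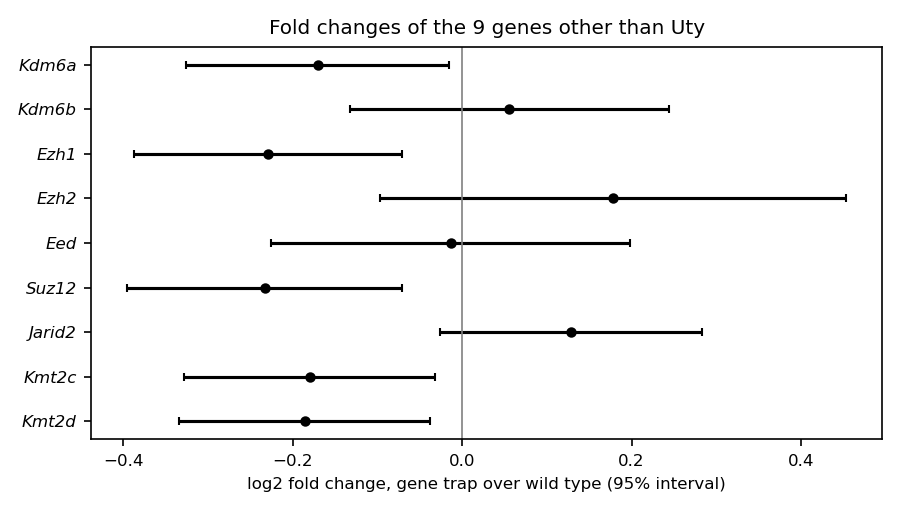
Log2 fold change of the 9 genes other than Uty, gene trap over wild type, with 95% intervals from limma (n = 3 per group). The intervals of Kdm6a, Ezh1, Suz12, Kmt2c and Kmt2d lie below 0 before adjustment over all genes, and none of the 9 genes passes after it.

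In wild type, the level of the members ran from Ezh2 at 25.5 ± 2.94 to Kdm6b at 814.4 ± 68.0 normalized counts per kb of annotated exon. Between them came Kmt2d (277.1 ± 13.9), Suz12 (213.4 ± 7.32), Kmt2c (201.7 ± 10.8), Ezh1 (135.5 ± 6.09), Jarid2 (125.4 ± 5.06), Eed (109.8 ± 9.74), Uty (101.7 ± 11.2) and Kdm6a (99.3 ± 2.32, SD, n = 3 for each). The libraries of Suz12 and Kmt2c overlapped, as did those of Eed and Uty and those of Uty and Kdm6a, while other neighbours in that order did not overlap. These levels depend on the annotated length: per kb of the longest transcript, Ezh1 was 239.6, Uty 191.2, Kdm6a 140.3 and Ezh2 61.2. Between wild-type libraries the coefficient of variation was lowest for Kdm6a (2.34%) and highest for Ezh2 (11.5%).

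The genes that work beside these members were taken from lists chosen with earlier results of these data known. Of the PRC2 accessory subunits, 8 of 9 were measured and 0 rose and 0 fell, with log2 fold changes from -0.19 (Lcor, a subunit of some PRC2 forms) to 0.35 (Epop, which links PRC2 to elongin), a median of 0.06, and no reads for AU022751. The histone-binding subunits Rbbp4 and Rbbp7 had 0.10 and 0.12. Of the partners in the KMT2C/D complexes, 6 of 7 were measured and 0 rose and 0 fell, but all 6 had negative values, from -0.26 (Paxip1, which encodes the subunit PTIP) to -0.06 (Rbbp5, a core subunit), with a median of -0.20. Over all tested genes, 6901 of 13875 were lower with the trap. Pagr1a had no reads. By limma, edgeR and DESeq2 alike, 0 genes of either list passed, and the count at an unadjusted p under 0.05 was 0 of the 8 accessory subunits and 3 of the 6 partners with each tool. With limma, 28.2% of all tested genes were under 0.05 unadjusted, and 15.0% were under it and lower.

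Genes past the threshold were found in the lists that follow; whether these lists differed from the former was not tested. Both H3K27 acetyltransferase genes, whose mark cannot coexist with methylation on the same residue, fell: Crebbp had 5320 ± 257 normalized counts in WT and 4263 ± 301 in GT (log2 fold change -0.32 ± 0.07 SE, limma adjusted p = 0.0155), and Ep300 3272 ± 84.4 and 2566 ± 128 (log2 fold change -0.35 ± 0.06 SE, limma adjusted p = 0.00666). Among 11 other H3K4 methyltransferases and partners, 4 fell and 0 rose. These were the methyltransferase genes Setd1a (463.5 ± 33.3 to 319.2 ± 12.7 normalized counts, log2 fold change -0.53 ± 0.09 SE, limma adjusted p = 0.00516), Setd1b (-0.32), Kmt2b (-0.34) and Kmt2a (-0.32), which encode the catalytic subunits of complexes other than those of KMT2C/D.

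Of 6 H3K4 demethylases, 2 fell and 0 rose, namely Kdm5d, which is Y-linked (388.0 ± 12.7 to 281.6 ± 36.7 normalized counts, log2 fold change -0.47), and Kdm5b (-0.28). Of 16 measured demethylases and relatives with a JmjC domain outside the KDM5 and KDM6 families, 4 fell and 0 rose: Kdm3a, an H3K9 demethylase gene induced by hypoxia (-0.43 ± 0.08 SE, limma adjusted p = 0.00684), Phf8 (-0.40), Phf2 (-0.37) and Kdm2a, an H3K36 demethylase gene (-0.27). Most of these 16 genes were not lower: 5 were lower and 11 higher with the trap. Their median log2 fold change was 0.03 and the highest 0.52. Of 5 H3K36 methyltransferases, whose mark hinders PRC2, 2 fell and 0 rose, namely Setd2 (-0.32) and Ash1l (-0.25).

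In all, 14 of 54 measured related genes fell and 0 rose, that is 25.9%, against 6.12% of all tested genes that fell. The count was 14 falls and 0 rises with edgeR and again with DESeq2, which called 5 of the other H3K4 methyltransferase list and 1 of the H3K4 demethylases. Of the 14 limma calls, 5 held without WT-e, 4 without WT-f, 10 without WT-g, 8 without GT-d and 14 without GT-e or without GT-f, and 0 with variance moderation that ignores the trend with expression. Calls for Setd1a, Phf2, Ep300 and Kdm3a held in each of the 6 fits that left out 1 library. Long genes were lower more often in these libraries: among tested genes with at least 8000 annotated exon bases, 8.54% fell and 2.67% rose, and under 2000 bases 5.59% fell and 6.40% rose. The 14 genes that fell had a median of 12804 bases and all tested genes 4310, and the part of length in these falls was not tested.

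**Figure D4:**
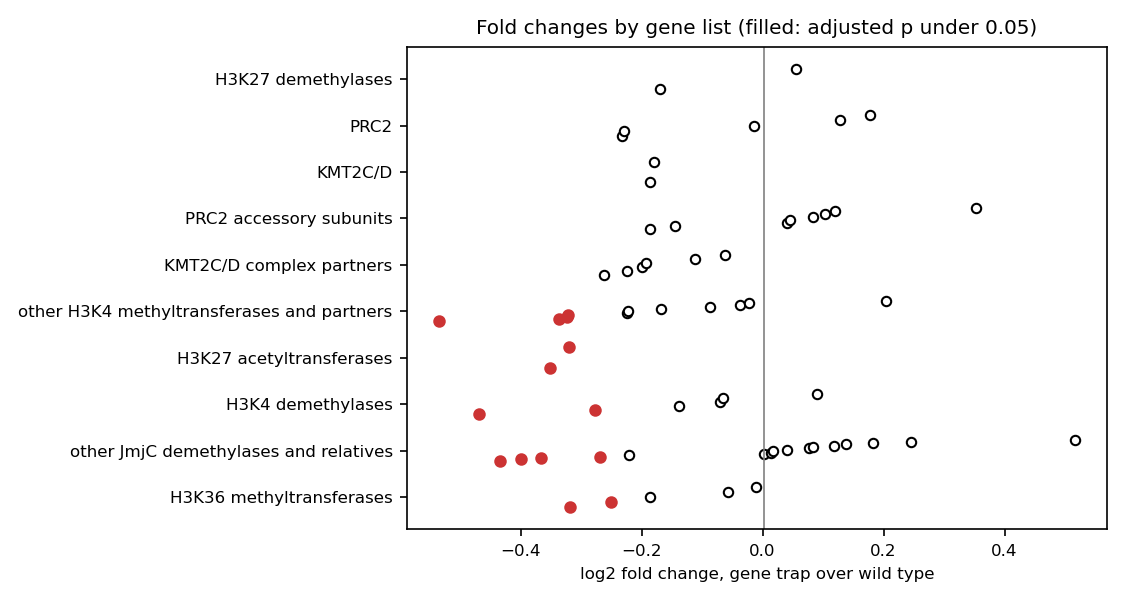
Log2 fold changes, gene trap over wild type, of the members other than Uty (upper 3 rows) and of the related genes by list, with filled red points for genes at a limma adjusted p under 0.05 and a grey line at the median of all tested genes. All 14 filled points lie left of the line, between -0.53 and -0.25, and none belongs to PRC2, its accessory subunits, KMT2C/D or their partners.

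By the Euclidean distance between deviations from the own mean over the 6 libraries, on the log2 scale, the 3 tested genes most like Uty were Bmp10 (distance 2.01), Gm24601 (3.22) and Ddx3y (4.19). Bmp10, a gene of a growth factor made in the atria, had 119, 69.9 and 91.7 normalized counts in WT-e, WT-f and WT-g, 0 in GT-d and e and 2.29 in GT-f. Gm24601 had 103, 102 and 126 in wild type and 7.94, 7.03 and 5.74 with the trap, and Ddx3y, the neighbour of Uty on chromosome Y, had 2243, 2368 and 2217 and 429, 289 and 176. The distance depends on the size of the change. The other 9 members, with log2 fold changes from -0.23 to 0.18, could therefore not be among them.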

How the data were processed

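RNA was DNase-treated, per the labels and the methods of the study, depleted of ribosomal RNA, made into stranded libraries and read as single 50-base reads. The authors used CASAVA 1.4, STAR 2.5.1b on GRCm38, featureCounts 1.6.0 on Ensembl genes and DESeq2 1.22.2; the strand and multi-mapping settings are not given in the sources used here. Deposited values are a signal on the scale of reads, namely each gene's count over the size factor of its library, as the authors obtained it from DESeq2. In each library 100% of values were whole multiples of the smallest (tolerance 0.001), so whole reads were recovered for the count-based alternatives, in which edgeR gave 730 rises and 812 falls and DESeq2 620 and 882. Fold changes and p-values of the authors' own comparison, held in the same deposited table, were not used. The 123 rows without a name held 0.00343% of reads.

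Groups were compared with limma 3.58.1 (R 4.3.3, variance trend) on log2 of normalized counts with a pseudocount of 1, for 13875 genes with a mean of at least 10. P-values are two-sided, were adjusted by Benjamini and Hochberg over these genes, and had a threshold of 0.05; "rose" and "fell" refer to it. A fold change sets the trap over WT on the log2(value + 1) scale. edgeR 4.0.16, DESeq2 1.42.0, other pseudocounts, filters, scalings and moderation, a block for the letters and leaving out each library were alternatives. Exon lengths, coordinates and transcript sequences came from GENCODE M21 (GRCm38), with a model for 54079 of the 54232 genes. Sums and ratios used single values per library and exact permutation tests; the sums of Uty with Kdm6a and of Ezh1 with Ezh2 were added after the values were seen. Named related genes were those past the threshold, up to 4 per list by adjusted p, and otherwise the ends of a list's range; Rbbp4 and Rbbp7 were added after their values were seen. The members and lists were chosen with earlier results of these data known. The fits were tested on simulated data.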

Additional observations from a re-analysis of the deposited data

How the results depend on the processing

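Uty fell under all 19 alternatives, with a log2 fold change from -6.69 to -5.74. Among the other 9 members, calls appeared for Suz12 under upper-quartile scaling (-0.28, which made 2 members that fell) and for Ezh1 when a library was left out (range -0.26 to -0.20, members that fell 1 to 2), and for the others under none of the alternatives. The number of members with a negative value, 7, varied between 6 and 8, through Eed and Kdm6b. With no filter 1004 genes rose, and with moderation that ignored the variance trend 76 rose and 70 fell. With 1 library left out, 164 to 1001 genes rose and 233 to 1231 fell, and 4 to 15 related genes fell. Quantile normalization gave 9 related falls and 1 rise, and moderation without a trend gave 0 falls. With the length of the longest transcript, the Uty share of the Uty and Kdm6a sum with the trap was 1.64% instead of 1.24%. The causes were not tested. Letters e and f occur in both groups, but the labels do not say that a letter marks a shared day or animal. Deviations of same-letter libraries correlated at 0.11 (e) and 0.15 (f) across genes. A replicate block for the letters gave 635 rises and 747 falls, with Uty at -6.69 and no other member past the threshold. With 3 libraries a group, the 95% intervals of the members other than Uty reached as far as 136.9% of wild type (Ezh2) and the residual Uty level rested on 7 to 21 reads per library.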

Other observations

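Classical targets of Polycomb repression were looked at as a readout of the marks that these enzymes set. Of 54 such genes (39 Hox genes and other developmental regulators), 36 had fewer than 10 reads over all 6 libraries and 6 had 0, and 5 passed the filter. Of these 5, 0 passed by limma, edgeR or DESeq2, 0 had an unadjusted p under 0.05 with any of them, and all overlapped between the groups, with 3 lower and 2 higher with the trap and a median log2 fold change of 0.00. Summed over the 39 Hox genes, there were 107, 135 and 118 normalized counts in WT-e, WT-f and WT-g and 107, 83.1 and 153 in GT-d, GT-e and GT-f. The trap libraries lay on both sides of wild type, and the highest, GT-f, was also the library with a read in the most genes, 28619 against 21615 to 22917 in the others. These are RNA levels, and H3K27 methylation itself was not measured in these libraries.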
